A study of Rattus norvegicus with 6 samples.

Results

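Oxidative phosphorylation is the last stage of respiration in mitochondria. Complexes I and II take electrons from NADH and succinate, complex III passes them on to cytochrome c, and complex IV hands them to oxygen. Complexes I, III and IV pump protons across the inner membrane, and complex V, the ATP synthase, uses the returning protons to make ATP. Hepatocytes are rich in mitochondria and depend on this pathway for the synthesis of glucose and urea. Most subunits are encoded in the nucleus, and a small core is encoded in the mitochondrial genome.

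The nuclear genes of this pathway were described in the livers of rats given phenolphthalein. Members were the genes whose RefSeq accession on the array leads to a symbol starting with Ndufa, Ndufb, Ndufc, Ndufs, Ndufv, Sdha to Sdhd, Uqcr, Cox4 to Cox8 or Atp5. Of the 15284 genes named on the array, 85 were members, with 150 probes between them. The symbols take in 68 subunits, 8 assembly factors of complexes I and II, and 9 other genes, which are isoforms of other tissues, an inhibitor, a transcribed pseudogene and relatives of subunits. By complex there were 32 genes of complex I, 4 of complex II, 8 of complex III, 18 of complex IV, 15 of complex V and 8 assembly factors. Ndufa4, named for complex I, was counted with complex IV, where the protein is now placed. The probe of highest mean signal stood for each gene. The array held 0 genes with a mitochondrial genome symbol among those named here, so the mitochondrial subunits were not analysed here.

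The study treated 3 male Sprague-Dawley (Crl:CD(SD)) rats with phenolphthalein, an acid-base indicator formerly used as a laxative drug, in a daily dose of 1000 mg per kg. They were set against 3 male rats of that strain given corn oil, the vehicle. All were bought at 5 weeks of age. The labels give 28 days in the design text and 9 weeks in the treatment protocol, and the length of treatment cannot be settled from them. Whole liver RNA from each animal was hybridised to 1 Agilent 1-colour array.

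Levels are given as log2 of the spot signal minus the 75th percentile of its array, and belong to 1 probe each, so levels of different genes are not compared. Between 62.1% and 65.1% of probes were well above background on each array, and 0 spots were saturated. The phenolphthalein arrays lay on 1 slide and scan day and the corn oil arrays on another, so slide and treatment cannot be told apart. All 8 hepatocyte markers were well above background on all 6 arrays, and 7 of them had a higher mean in phenolphthalein livers, with a median log2 fold change of 0.058. Their summed level, the log2 of the summed signals, was 12.03 to 12.09 in phenolphthalein livers and 11.95 to 12.07 in corn oil livers. In such a sum the brightest markers of a list weigh most. All 8 Kupffer cell markers had a lower mean in phenolphthalein livers, with a median log2 fold change of -0.65 and summed levels of 6.11 to 6.53 in phenolphthalein livers and 6.64 to 7.10 in corn oil livers. All 6 lymphocyte markers tested were lower in the mean too, with summed levels of 1.18 to 1.35 in phenolphthalein livers and 1.64 to 1.88 in corn oil livers. All 7 stellate cell and fibroblast markers tested and all 5 endothelial markers had lower means as well, with medians of -0.12 and -0.077. Their summed levels overlapped between groups, at 4.92 to 5.38 in phenolphthalein livers and 5.18 to 5.37 in corn oil livers for the stellate list, and at 5.48 to 5.59 in phenolphthalein livers and 5.56 to 5.60 in corn oil livers for the endothelial list. Of the 3 bile duct markers tested, 2 had a higher mean in phenolphthalein livers, with a median of 0.29. Their summed levels did not overlap, at 0.71 to 0.77 in phenolphthalein livers and 0.49 to 0.55 in corn oil livers. In whole liver RNA, a change in the number of cells of a type and in their RNA per cell cannot be told apart. The part that cell makeup has in the values below was not tested.

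The start regions of 4 members, genes of complexes V, II and IV, are printed. They are examples with and without the NRF-1 element and the ETS core, which were counted over the set. They were taken from RefSeq (GRCr8) and run from 250 bases before to 50 bases after the start of the gene, 5′ to 3′ on the gene's strand. Capitals mark the NRF-1 element (GCGCA, then any base, then GCGC) and the ETS core CCGGAAG, searched on both strands. NRF-1 and the ETS factor GABP (NRF-2) are known activators of respiratory chain genes. The Atp5me region is chr14:1464610-1464909 on the plus strand, with 1 element of each kind. The Sdha region is chr1:30764303-30764602 on the plus strand, with 3 NRF-1 elements. The Cox4i1 region is chr19:65630133-65630432 on the plus strand, with 2 ETS cores, and the Ndufa4 region is chr4:40975510-40975809 on the minus strand, with neither motif.
Atp5me: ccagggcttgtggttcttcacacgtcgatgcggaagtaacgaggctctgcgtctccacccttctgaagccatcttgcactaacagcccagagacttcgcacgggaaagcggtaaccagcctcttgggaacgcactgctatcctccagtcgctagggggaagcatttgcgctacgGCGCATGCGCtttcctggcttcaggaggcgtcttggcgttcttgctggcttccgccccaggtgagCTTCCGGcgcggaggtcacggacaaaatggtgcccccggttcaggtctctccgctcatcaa
Sdha: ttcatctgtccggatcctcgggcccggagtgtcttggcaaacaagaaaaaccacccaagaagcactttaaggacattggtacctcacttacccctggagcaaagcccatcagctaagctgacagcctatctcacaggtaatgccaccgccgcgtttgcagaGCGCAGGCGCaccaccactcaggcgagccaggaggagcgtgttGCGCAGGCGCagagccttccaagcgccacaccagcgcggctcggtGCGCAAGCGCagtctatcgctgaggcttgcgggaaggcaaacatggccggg
Cox4i1: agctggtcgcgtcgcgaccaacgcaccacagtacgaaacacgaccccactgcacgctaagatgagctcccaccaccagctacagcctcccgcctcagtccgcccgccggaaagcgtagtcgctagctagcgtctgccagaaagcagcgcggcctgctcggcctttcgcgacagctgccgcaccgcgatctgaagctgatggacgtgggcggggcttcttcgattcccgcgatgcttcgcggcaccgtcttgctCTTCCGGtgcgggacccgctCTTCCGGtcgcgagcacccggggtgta
Ndufa4: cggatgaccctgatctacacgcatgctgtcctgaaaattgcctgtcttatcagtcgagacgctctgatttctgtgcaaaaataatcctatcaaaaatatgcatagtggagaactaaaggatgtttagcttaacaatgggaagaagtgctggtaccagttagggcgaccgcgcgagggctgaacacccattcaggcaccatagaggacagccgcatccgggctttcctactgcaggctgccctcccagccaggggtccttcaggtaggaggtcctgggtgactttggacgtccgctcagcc

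A start region was found for 75 of the 85 members. The NRF-1 element stood in 14 of them (18.7%), against 8.89% of 9301 other tested genes and 4.71% of all 27457 regions in the table. Sdha carries G or A at the open base of that pattern, while the usual NRF-1 consensus has C or T there. A narrower search that took only C or T at the open base, made after the first counts were seen, found 8 of the 75 members, against 4.17% of other tested genes and 2.29% of all regions, and Sdha was no longer among them. The ETS core was in 24 members (32%), against 16.3% and 9.22%. The core ATGGCGGC of YY1, another activator of respiratory genes, was in 11 members (14.7%), against 4.87% and 2.76%. The GC box GGGCGG was in 44% of members and 57.2% of other tested genes, CCAAT in 34.7% and 38.5%, and TATAAA in 8% and 8.84%. Of the 75 regions, 1 held both the NRF-1 element and the ETS core, that of Atp5me, and 9 held none of the 6 motifs. A match in these letters is a description of the sequence and not evidence of binding.

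The 85 genes were spread over the genome, and 84 of them passed the filter of a signal well above background on at least 3 of 6 arrays. Cox8c, a testis isoform of complex IV, was not well above background on any array with either probe, and has no test. Across the 84 genes the levels of the livers of the 2 treatments lay close together. With limma and Benjamini-Hochberg adjustment over all 11434 genes tested, 0 members passed an adjusted p of 0.05, where 0.0612% of all genes did (7 genes), and the smallest adjusted p of a member was 0.116. An unadjusted limma p under 0.05 was reached by 8 members, all with a higher mean in phenolphthalein livers, which is 9.52% of members against 15.3% of all genes (7.16% higher and 8.11% lower). No member reached a 2-fold difference, and the 95% interval of the log2 fold change lay within 1 log2 unit for 84 of 84 members and within 0.5 for 79.

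The values were small but leaned one way. The mean was higher in phenolphthalein livers for 65 members and lower for 19, so 77.4% were higher, while 51.8% of all genes were higher and 48.2% lower. The median log2 fold change was 0.084, with quartiles of 0.017 and 0.14, against a median of 0.0096 over all genes. Of the 83 members with 6 values, 27 had 3 phenolphthalein livers above all 3 corn oil livers and 2 had them below, which is 32.5% and 2.41%. Over all genes 12.2% did not overlap and were higher and 11% did not overlap and were lower, 23.2% together. The spread within a group was a median SD of 0.067 for members and 0.154 for all genes.

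**Figure D1:**
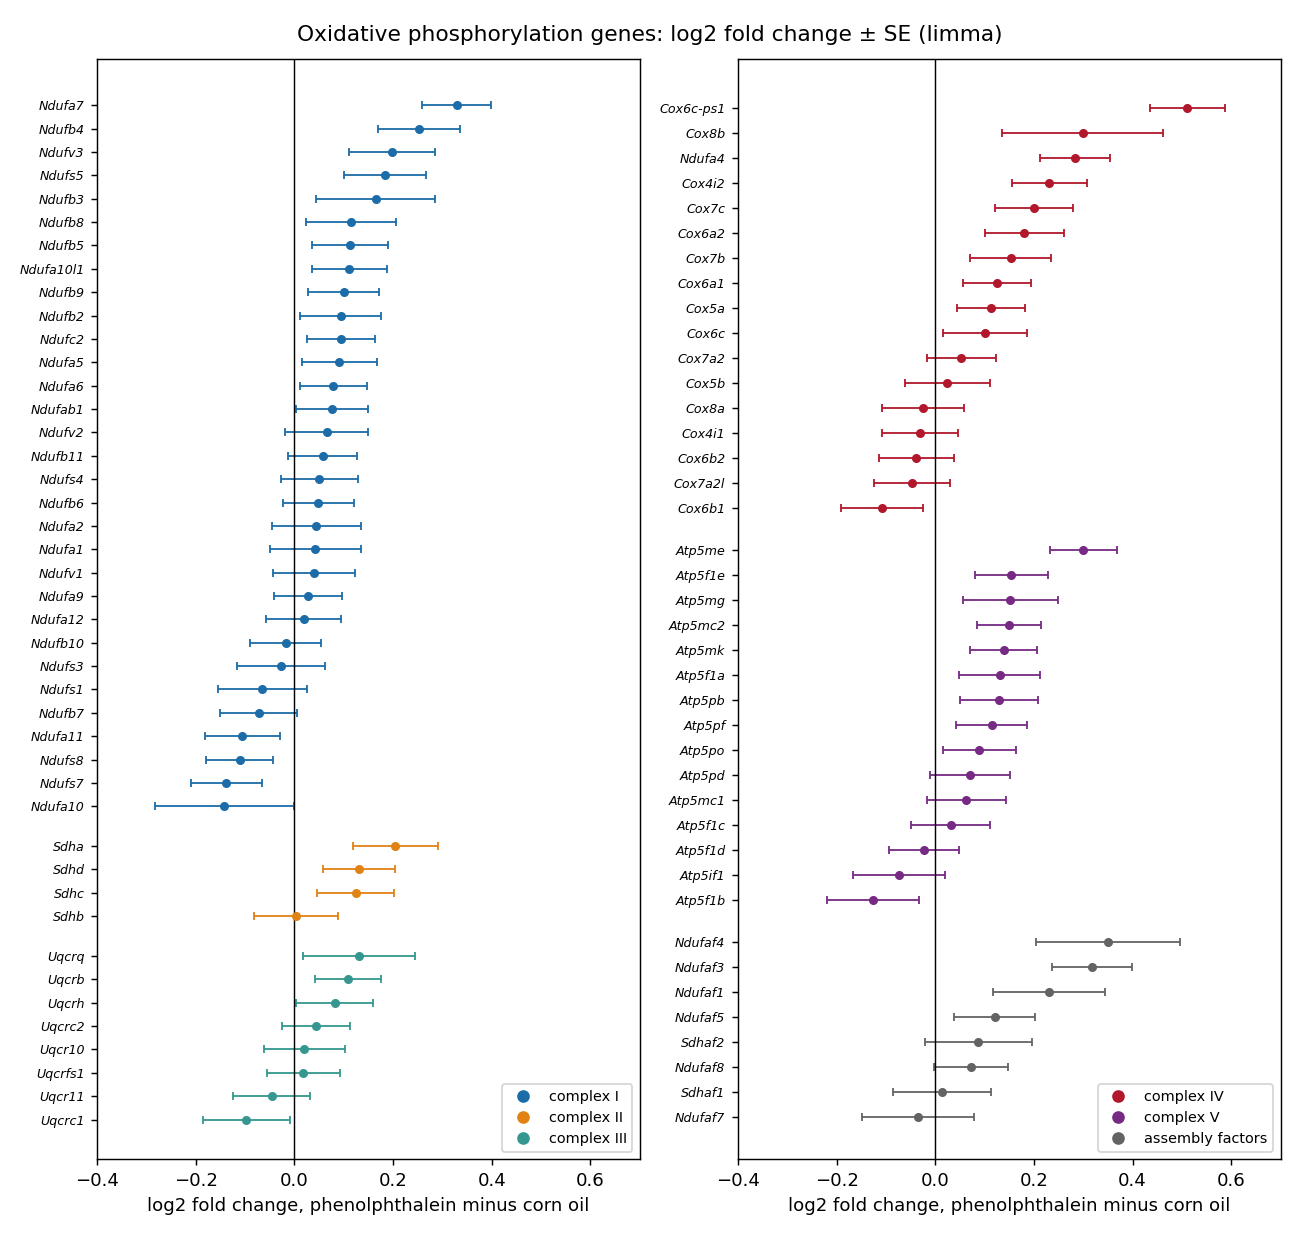
Log2 fold change of 83 of the 84 tested members, phenolphthalein minus corn oil (x axis, log2 units), sorted within each complex, with points at the limma estimate and bars at 1 SE (n = 3 animals each). Most points lie right of 0, between -0.14 for Ndufa10 and 0.51 for Cox6c-ps1, and no member passed the adjusted threshold.

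That lean depended on the scaling of the arrays. After quantile normalization, 51 members had a higher and 33 a lower mean, their median log2 fold change was 0.015, and 10 did not overlap and were higher against 8 lower (12% and 9.64%, against 10.8% and 11.2% of all genes). With a median shift, 77 members and 66.2% of all genes had a higher mean, and the median was 0.16 for members and 0.089 for all genes. Under that shift 56 members did not overlap and were higher against 0 lower (67.5% and 0%, against 22.2% and 6.32% of all genes). Of the 84 members, 73 (86.9%) lay in the brightest of 4 equal signal classes of the tested genes. The 2786 other genes of that class had a median log2 fold change of 0.057, against 0.070 for the 73 members, and after quantile normalization these medians were 0.0072 and 0.0098. Median log2 fold changes of the other genes were -0.082, -0.0080 and 0.021 in the other signal classes, from the dimmest up. The 1, 4 and 6 members of those classes had medians of 0.299, 0.205 and 0.275. After quantile normalization they had 0.384, 0.21 and 0.242, against 0.0032, 0.0041 and -0.00091 for the other genes. In the brightest class 64.2% of the other genes and 55 of the 73 members had a higher mean in phenolphthalein livers. Of the other genes in it, 19.9% did not overlap and were higher, against 7.08% lower. These classes were formed after the values were seen.

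**Figure D2:**
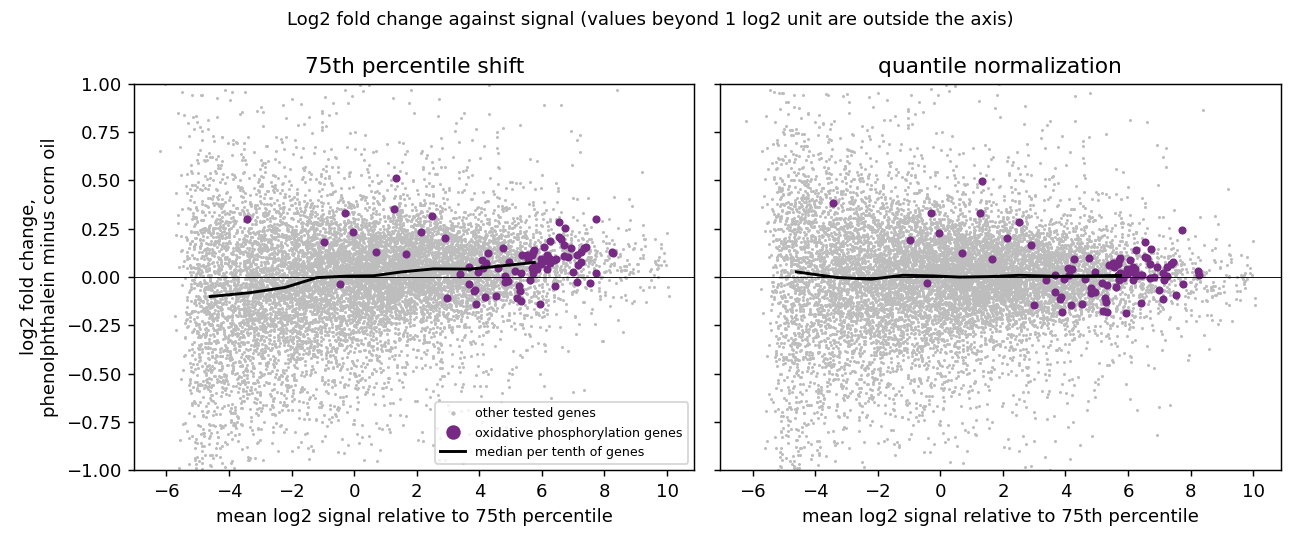
Log2 fold change, phenolphthalein minus corn oil (y axis, log2 units), against the mean log2 signal of each gene relative to the 75th percentile of its array (x axis), with members as large points, the other tested genes as small points and a line through the medians of 10 equal signal classes. With the 75th percentile shift (left) the line climbs with signal, and after quantile normalization (right) it runs close to 0, where the members have a median of 0.015.

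Complex I, the largest complex and the entry point of electrons from NADH, had 32 members tested, 24 with a higher and 8 with a lower mean in phenolphthalein livers. Its median log2 fold change was 0.061, and 2 members had an unadjusted limma p under 0.05 (6.25%, against 15.3% of all genes). Ndufa7, an accessory subunit, had levels of -0.11, -0.08 and -0.17 in phenolphthalein livers, against -0.42, -0.48 and -0.44 in corn oil livers. All 3 phenolphthalein livers lay above all 3 corn oil livers, the log2 fold change was estimated at 0.33 ± 0.069 (SE), and the limma adjusted p was 0.172. Ndufb4, another accessory subunit of the membrane arm, had levels of 6.84, 6.80 and 6.93 in phenolphthalein livers, against 6.52, 6.59 and 6.70 in corn oil livers. The groups did not overlap, the log2 fold change was 0.25 ± 0.084 (SE) and the limma adjusted p was 0.271, while the other 2 probes of the gene gave 0.21 and -0.046. Ndufv3, an accessory subunit of the NADH module, had 6.58, 6.79 and 6.79 in phenolphthalein livers, against 6.52, 6.49 and 6.55 in corn oil livers. Its groups did not overlap on the brightest probe, with 0.20, and its other probes gave 0.045, 0.064 and -0.16.

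The 7 core subunits tested, among them Ndufs1, Ndufs3, Ndufs7, Ndufs8, Ndufv1 and Ndufv2, belong to the part that carries electrons from NADH towards ubiquinone. Of these, 3 had a higher mean and 4 a lower one, with a median log2 fold change of -0.027. The 24 accessory subunits had a median of 0.077, with 20 higher and 4 lower. The split into core and accessory subunits was made after the values were seen and was not tested. Ndufs7, which holds the cluster next to the quinone, had levels of 5.87, 5.85 and 5.89 in phenolphthalein livers, against 5.99, 5.96 and 6.08 in corn oil livers. All 3 phenolphthalein livers were lower, the log2 fold change was -0.14 ± 0.071 (SE) and the limma adjusted p was 0.414. Ndufs8, which carries a pair of clusters, had levels of 2.92, 2.97 and 2.89 in phenolphthalein livers, against 3.04, 3.05 and 3.02 in corn oil livers. These also did not overlap, the log2 fold change was -0.11 ± 0.067 (SE), and the second probes of both genes had lower values in phenolphthalein livers, -0.28 for Ndufs7 and -0.068 for Ndufs8. On the brightest probe of each gene, Ndufs7 and Ndufs8 were the 2 members of the set whose 3 phenolphthalein livers all lay below.

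Among the other core subunits, Ndufv1, Ndufv2, Ndufs1 and Ndufs3 overlapped between groups on their brightest probes. The log2 fold change was 0.066 for Ndufv2 and 0.040 for Ndufv1, subunits of the NADH module, -0.027 for Ndufs3 and -0.065 for Ndufs1. The second Ndufv1 probe gave -0.12, lower and without overlap, so the direction for this gene depended on the probe. The lowest estimate of the complex was that of Ndufa10, an accessory subunit, at -0.14 ± 0.14 (SE), with levels of 3.62, 3.85 and 3.95 in phenolphthalein livers that overlapped the 3.73, 4.13 and 3.99 of corn oil livers. Ndufs5 lost 1 phenolphthalein array to an outlier mark, and its estimate of 0.18 rests on 2 phenolphthalein values, 6.35 and 6.40, against 6.16, 6.19 and 6.22 in corn oil livers.

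Complex II, succinate dehydrogenase, links the citric acid cycle to the chain. All 4 genes had a higher mean in phenolphthalein livers, with a median log2 fold change of 0.13. An unadjusted limma p under 0.05 was reached by 0 of them, against 15.3% of all genes. Sdha, the flavoprotein that oxidises succinate, had 6.66, 6.59 and 6.73 in phenolphthalein livers, against 6.38, 6.56 and 6.42 in corn oil livers. The groups did not overlap, the log2 fold change was 0.20 ± 0.086 (SE) and the limma adjusted p was 0.334. The membrane anchors Sdhc and Sdhd did not overlap between groups either, at 0.12 and 0.13. Sdhb, the iron-sulfur subunit, had 4.87, 4.72 and 4.86 in phenolphthalein livers, against 4.79, 4.75 and 4.91 in corn oil livers, a log2 fold change of 0.0024 ± 0.085 (SE).

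Complex III, which oxidises ubiquinol and reduces cytochrome c, had the lowest median of the 5 complexes at 0.032, with 6 of 8 members higher in the mean. The complex had 1 member without overlap, which was higher, and this is 12.5%, against 12.2% of all genes. It was Uqcrb, a small accessory subunit, with 6.73, 6.76 and 6.77 in phenolphthalein livers and 6.67, 6.60 and 6.67 in corn oil livers. Its log2 fold change was 0.11 ± 0.067 (SE), with a limma adjusted p of 0.479. Uqcrc1, a core protein, had the lowest estimate at -0.097, its partner Uqcrc2 had 0.044, and the Rieske iron-sulfur protein Uqcrfs1 had 0.018, all with overlapping groups. Uqcr11 and Uqcrh, small subunits, had -0.046 and 0.082, with overlapping groups. The highest estimate, 0.13 for the small subunit Uqcrq, came with 0.65, 0.65 and 0.97 in phenolphthalein livers and 0.63, 0.69 and 0.56 in corn oil livers, where 1 liver stood above the others.

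Complex IV, cytochrome c oxidase, had 17 members tested, 12 higher and 5 lower in the mean, with a median of 0.11. It held 4 of the 8 members with an unadjusted limma p under 0.05, 23.5% of the complex against 15.3% of all genes (7.16% higher). The complex also held 8 members without overlap, all higher. These are 47.1%, against 12.2% of all genes and 19.9% of the other genes in the brightest signal class. Of the 8, Cox6c-ps1 and Cox4i2 lay in the class below, where that share was 14.4%, and Cox6a2 in the next, with 8.72%. Among the 11 genes classed as subunits of the complex, 2 had an unadjusted limma p under 0.05 (18.2%). Of the 11, 5 did not overlap and were higher (45.5%). Cox6c-ps1, a transcribed pseudogene of the subunit gene Cox6c, had the highest estimate of the whole set. Its levels were 1.59, 1.50 and 1.67 in phenolphthalein livers and 1.05, 1.11 and 1.07 in corn oil livers, without overlap. The log2 fold change was 0.51 ± 0.076 (SE), with a limma adjusted p of 0.116. A pseudogene transcript and its parent can share hybridising sequence, Cox6c itself had 0.10 ± 0.086 (SE), and the second probe of the pseudogene was well above background on 1 array of each group.

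Ndufa4, a subunit of complex IV at its surface, had 6.68, 6.67 and 6.72 in phenolphthalein livers, against 6.36, 6.38 and 6.47 in corn oil livers. All 3 phenolphthalein livers were higher, the log2 fold change was estimated at 0.28 ± 0.071 (SE), and the limma adjusted p was 0.209. Cox7c, a small structural subunit, had 2.99, 2.93 and 3.08 in phenolphthalein livers, against 2.74, 2.80 and 2.86 in corn oil livers, without overlap. Its log2 fold change was 0.20 ± 0.079 (SE), with a limma adjusted p of 0.318. The isoform Cox4i2, known from lung and from low oxygen, had 2.18, 2.27 and 2.34 in phenolphthalein livers and 2.04, 2.04 and 2.01 in corn oil livers, a log2 fold change of 0.23 ± 0.076 (SE) with a limma adjusted p of 0.269. The second Cox4i2 probe went the other way, with 1.78, 1.27 and 1.88 in phenolphthalein livers against 2.01, 2.10 and 2.03 in corn oil livers, so the direction for this gene depended on the probe.

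**Figure D3:**
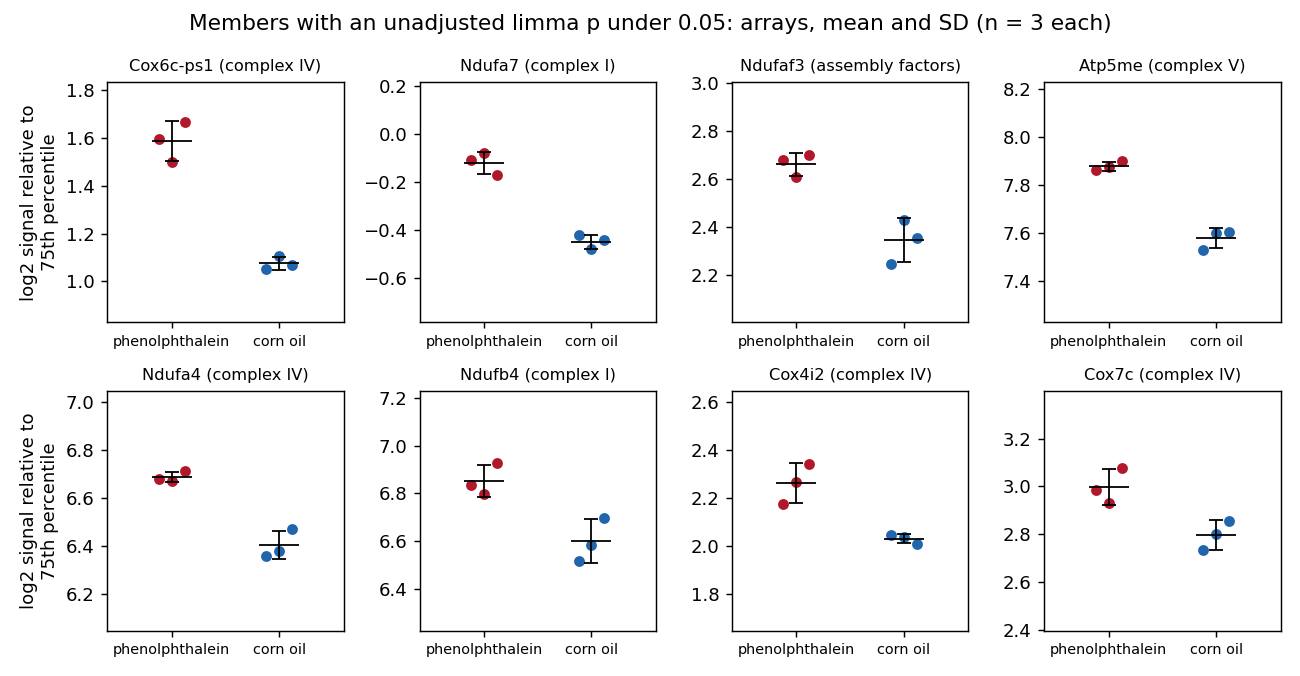
Levels of the 8 members with an unadjusted limma p under 0.05 (y axis, log2 signal relative to the 75th percentile, spanning 1 log2 unit in each panel), with a point per animal and the mean and SD of phenolphthalein livers (left, n = 3) and corn oil livers (right, n = 3). In each panel the 3 phenolphthalein livers lie above the 3 corn oil livers, and the adjusted p of these genes is between 0.116 and 0.318.

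Apart from the isoforms and the pseudogene, the other subunits of complex IV had estimates smaller in size than those of Ndufa4 and Cox7c. The largest on a brightest probe was that of Cox7b, 0.15 ± 0.082 (SE). Cox7b had 6.14, 6.16 and 6.13 in phenolphthalein livers, against 5.87, 6.03 and 6.07 in corn oil livers, without overlap. Cox4i1, the usual form of subunit 4, had 7.54, 7.42 and 7.58 in phenolphthalein livers, against 7.55, 7.52 and 7.57 in corn oil livers, a log2 fold change of -0.031 ± 0.076 (SE). Cox5a and Cox5b, which sit beside the catalytic core, had 0.11 and 0.025, and the groups of Cox5a did not overlap. Cox6a1, the liver form of subunit 6a, had 8.31, 8.32 and 8.34 in phenolphthalein livers, against 8.17, 8.17 and 8.25 in corn oil livers, without overlap and with 0.12 ± 0.069 (SE). Cox6b1 had the lowest estimate of the complex at -0.11, Cox7a2 had 0.053 and Cox8a had -0.024, all with overlapping groups. Other probes of Cox6b1 gave -0.28 with overlap and 0.19 without overlap. The isoform Cox7a2l, a factor of supercomplexes, had -0.047.

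Forms known from other tissues gave no single direction. Cox6a2, the muscle form of subunit 6a, had an estimate of 0.18 on its brightest probe, and its other 2 probes gave -0.25 and -0.087. Cox8b, a heart and muscle form, had 0.30 ± 0.16 (SE) with overlapping groups, and its second probe gave -0.026. The testis form Cox6b2 had -0.038. Of the 8 muscle markers listed, the myosins Myh1, Myh4, Myh6 and Myh7 were well above background on 0 arrays, 2 markers were so on all 6, and 3 were tested. The cardiac troponin gene Tnni3 had -2.70, -2.78 and -2.55 in phenolphthalein livers, against -3.13, -3.08 and -3.05 in corn oil livers, without overlap and with 0.41 ± 0.088 (SE). Ckm and Actn2, other muscle genes, had -0.13 and -1.13 with overlapping groups, and the summed muscle level was -1.78 to -1.11 in phenolphthalein livers and -1.66 to -1.41 in corn oil livers. The part of muscle RNA in the values of these isoforms was not tested.

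Complex V, the ATP synthase, had 12 of 15 members higher in the mean, a median of 0.11 and 7 members without overlap, all higher. These 7 are 46.7%, against 12.2% of all genes and 19.9% of the other genes in the brightest signal class. Atp5me, subunit e of the membrane part, where dimers of the enzyme form, had 7.86, 7.88 and 7.90 in phenolphthalein livers, against 7.53, 7.60 and 7.61 in corn oil livers. All 3 phenolphthalein livers were higher, the log2 fold change was estimated at 0.30 ± 0.068 (SE), and the limma adjusted p was 0.181. It is the member whose start region, printed above, holds both motifs. Atp5mc2, a gene of the rotating c-ring, had 7.46, 7.43 and 7.42 in phenolphthalein livers, against 7.27, 7.30 and 7.28 in corn oil livers, without overlap. Its 3 probes gave 0.15, 0.026 and -0.16.

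The 5 genes of the catalytic F1 head, with its central stalk, had a median log2 fold change of 0.032. The 9 genes of the membrane part and peripheral stalk had 0.13, all 9 higher in the mean. This split too was made after the values were seen and was not tested. In the head, Atp5f1a, the alpha subunit, had 8.32, 8.27 and 8.35 in phenolphthalein livers, against 8.06, 8.24 and 8.24 in corn oil livers, with 0.13 ± 0.082 (SE). Atp5f1b, the catalytic beta subunit, had 5.23, 5.26 and 5.28 in phenolphthalein livers, against 5.22, 5.48 and 5.45 in corn oil livers, with -0.13 ± 0.093 (SE) and overlapping groups. The central stalk genes Atp5f1c, Atp5f1d and Atp5f1e had 0.032, -0.023 and 0.15, and those of Atp5f1e did not overlap. Atp5mg, subunit g, had 0.15 with overlapping groups, and Atp5if1, the inhibitor that blocks ATP hydrolysis, had -0.073 ± 0.093 (SE).

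Of the 8 assembly factors, 7 had a higher mean in phenolphthalein livers, with a median of 0.10. Ndufaf3, an early factor of complex I assembly, had 2.68, 2.61 and 2.70 in phenolphthalein livers, against 2.25, 2.43 and 2.35 in corn oil livers. The groups did not overlap, the log2 fold change was 0.32 ± 0.081 (SE), the limma adjusted p was 0.211, and the second probe gave 0.087. Its partner Ndufaf4 had 1.35, 1.51 and 1.46 in phenolphthalein livers, against 0.83, 1.36 and 1.08 in corn oil livers, with overlap by a narrow margin. The log2 fold change was 0.35 ± 0.15 (SE), with a limma adjusted p of 0.334, and its 4 probes gave 0.31 to 0.47. Ndufaf1 had 0.23, Ndufaf8 0.073, the complex II factor Sdhaf1 0.013 and Ndufaf7, a methyltransferase, -0.034, all with overlapping groups.

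**Figure D4:**
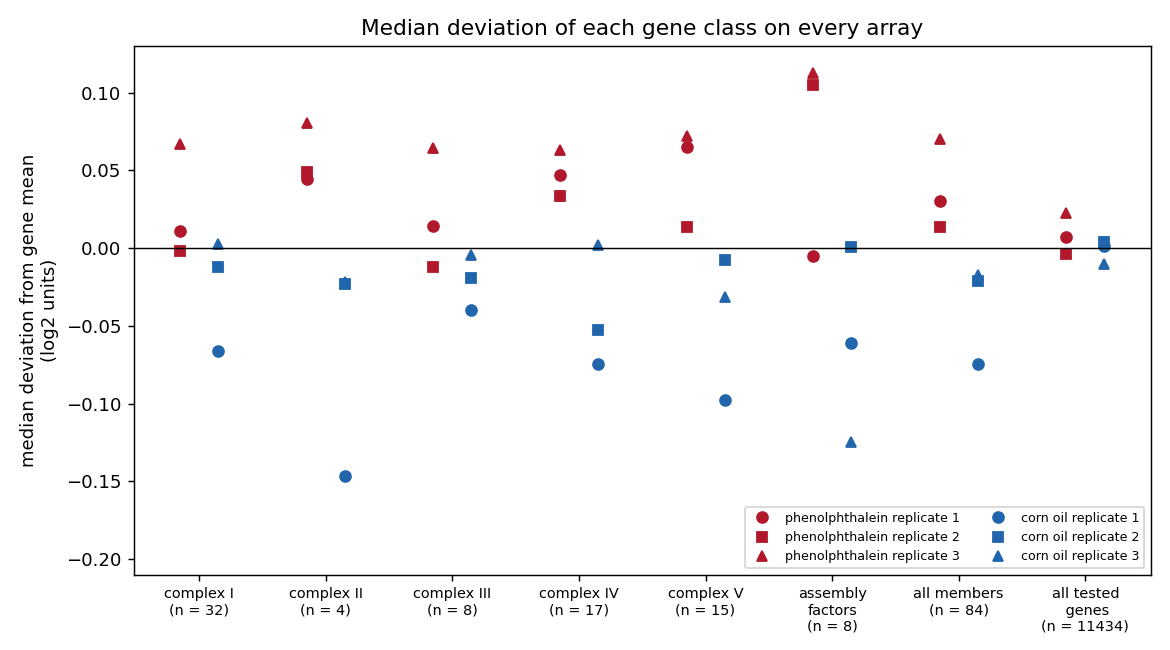
Median deviation of each class of genes from the gene means over 6 arrays (y axis, log2 units), with a point per array, phenolphthalein arrays left of corn oil arrays, for the 5 complexes, the assembly factors, all 84 members and all 11434 tested genes. For all members the phenolphthalein arrays lie at 0.030, 0.014 and 0.070 and the corn oil arrays at -0.075, -0.021 and -0.018.

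Array by array, the members' median deviation was above 0 on all 3 phenolphthalein arrays and below 0 on all 3 corn oil arrays. Complex II, IV and V showed no overlap of arrays in this median, and complex I, complex III and the assembly factors did. Corn oil replicate 1 was the lowest array for all 5 complexes, at -0.15 for complex II and -0.098 for complex V. Without it the median log2 fold change of all members was 0.067, and 62 members had a higher mean.

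Different probes of a gene did not always go together. Of the 43 members with more than 1 probe past the filter, 24 had all probes on the same side of 0 and 19 had probes on both sides, with a median range of 0.0881 log2 units. For 40 of the 85 members the RefSeq table names at least 1 pseudogene copy, 92 copies in all, and probes of these genes may take up signal from such copies.

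The median log2 fold change of members with the NRF-1 element was 0.14 over 14 genes, 12 of them higher in the mean. It was 0.060 over the 60 without it, 44 of them higher. In the narrower form it was 0.11 over 8 genes (7 higher) and 0.069 over 66 (49 higher). For the ETS core it was 0.063 over 24 genes (19 higher) and 0.083 over 50 (37 higher). For YY1 it was 0.045 over 11 (8 higher) and 0.090 over 63 (48 higher). None of these pairs was tested.

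Of the other mitochondrial genes listed, 0 passed the adjusted limma test. Among 38 further respiratory genes (cytochrome c, ubiquinone synthesis and assembly factors), 28 had a higher mean in phenolphthalein livers, with a median of 0.071. Of the 38, 5 had an unadjusted limma p under 0.05, all higher, which is 13.2%, against 15.3% of all genes (7.16% higher). Acad9, which helps to assemble complex I, had 3.41, 3.46 and 3.39 in phenolphthalein livers, against 3.11, 3.24 and 3.13 in corn oil livers, and a log2 fold change of 0.26, and Coq5, of ubiquinone synthesis, had 0.20. Of 16 citric acid cycle genes 12 were higher in the mean, with a median of 0.10. An unadjusted limma p under 0.05 was reached by 0 of the 16, against 15.3% of all genes. Those of smallest p were Cs, citrate synthase, with 0.17, and Dlst, of the oxoglutarate dehydrogenase complex, with 0.19. Of 66 mitochondrial ribosomal genes 58 were higher, with a median of 0.11. Of the 66, 12 had an unadjusted limma p under 0.05, which is 18.2%, against 15.3% of all genes (7.16% higher). All 12 were higher, led by Mrps31 with 0.46 and Mrps30 with 0.31. Of 18 genes of mitochondrial biogenesis 12 were higher, with a median of 0.11.

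Among the regulators, Gabpb1, a partner subunit of the ETS factor GABP, had 1.45, 1.16 and 1.29 in phenolphthalein livers, against 1.56, 1.55 and 1.75 in corn oil livers, with -0.32 ± 0.11 (SE) and a limma adjusted p of 0.276. Ssbp1, which binds single-stranded mitochondrial DNA, had 3.21, 3.12 and 3.29 in phenolphthalein livers, against 2.97, 3.00 and 2.78 in corn oil livers, with 0.29 ± 0.094 (SE) and a limma adjusted p of 0.265. Of the 7 mitochondrial carriers and uncoupling genes, 1 had an unadjusted limma p under 0.05 and was higher and 2 were lower (42.9% together, against 15.3% of all genes). The phosphate carrier Slc25a3, which feeds the ATP synthase, had 6.31, 6.25 and 6.34 in phenolphthalein livers, against 5.93, 6.10 and 6.01 in corn oil livers, with 0.29. The adenine nucleotide carrier Slc25a4 had 0.71, 0.57 and 0.69 in phenolphthalein livers, against 0.91, 0.98 and 0.94 in corn oil livers, with -0.29. The uncoupling protein gene Ucp2 had -1.12, -1.08 and -0.41 in phenolphthalein livers, against -0.21, -0.04 and -0.29 in corn oil livers, without overlap and with -0.69 ± 0.21 (SE), a larger size than that of any member.

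Most genes of 2 lists outside the mitochondrion also had a higher mean. Of 80 cytosolic ribosomal genes 70 had a higher mean in phenolphthalein livers, with a median log2 fold change of 0.098 and with Rpl13 at 0.25 and Rps21 at 0.21 as the genes of smallest p. Of 38 proteasome genes 33 did, with a median of 0.18. The smallest p values of the proteasome list belonged to genes with lower levels, the inducible immunoproteasome subunits Psmb8 with -0.59 and Psmb9 with -0.46, both without overlap. Under quantile normalization the proteasome list kept a median of 0.13 and the cytosolic ribosomal list had 0.021, against 0.015 for the members.

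**Figure D5:**
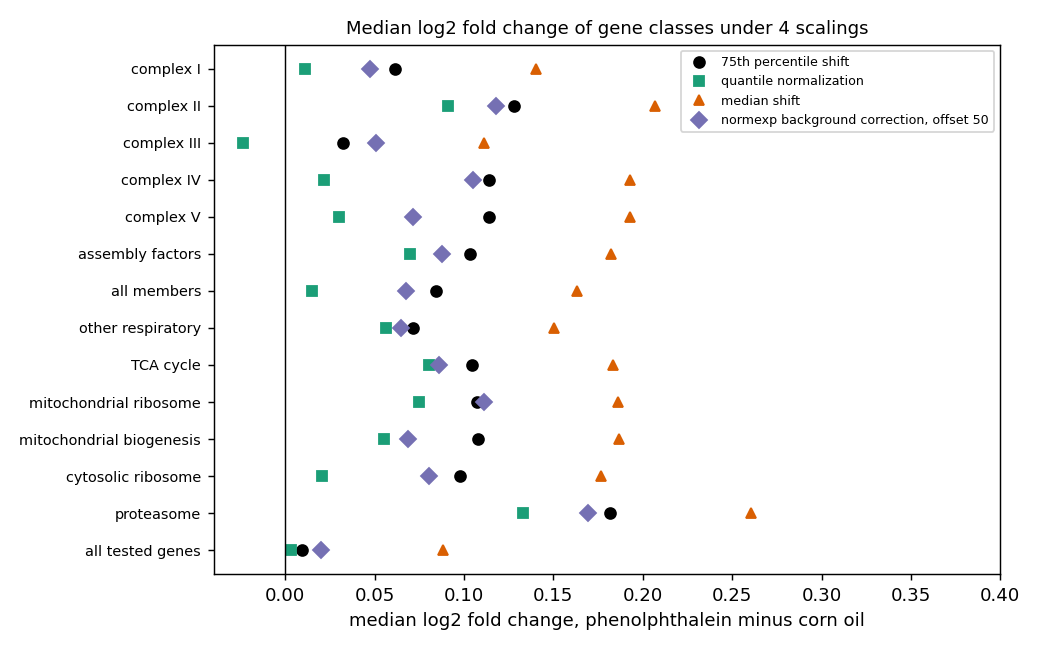
Median log2 fold change, phenolphthalein minus corn oil (x axis, log2 units), of each class of genes (rows) under 4 scalings of the arrays. The medians of all members are 0.084 with the 75th percentile shift, 0.015 with quantile normalization, 0.16 with a median shift and 0.068 with normexp background correction, and complex III turns to -0.023 with quantile normalization.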

How the data were processed

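Per the labels' protocols, total RNA of each liver was labelled with Cy3 and read on its own 1-colour Agilent array. Spot intensity in the deposited scanner files is background-subtracted but not scaled between arrays, per the file headers. Agilent Feature Extraction made it (the submitters' processing notes say 10.7, the headers 10.7.1.1). The authors' deposited value table gives the same signal over a constant of each array. A comparison with the scanner files showed that this constant held within 0.00501%, so the table is linear and not centred per gene. Its column medians were 0.0954, 0.0941 and 0.0959 for phenolphthalein and 0.0984, 0.101 and 0.102 for corn oil.

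The log2 processed signal of 61657 non-control probes was shifted by the 75th percentile of its array. That percentile was 578, 562 and 551 on phenolphthalein arrays and 622, 636 and 595 on corn oil arrays. Outlier-marked spots, 4 to 14 per array, were set missing. Accessions were matched to RefSeq symbols of GRCr8, where 27460 probes had 1 gene and 34197 had none. A probe was kept if at least 3 of 6 arrays had it well above background, and the brightest stood for its gene. The test was limma 3.58.1 under R 4.3.3, with lmFit and eBayes and Benjamini-Hochberg adjustment. The script was tested on simulated data. The number of arrays, 3 per group, limits the precision. Per the labels the 3 samples of a group are separate animals.

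Named genes were members with an unadjusted p under 0.05, the 3 highest and 3 lowest log2 fold changes of each complex, the core subunits, tissue isoforms, and the 2 smallest p of each other list, while cell type markers are given by count. Further names, such as Ucp2, the muscle genes, members without overlap, those with an outlier mark, several probes or a printed sequence, were chosen after their values were seen. Members and lists were chosen with earlier results of these data known. The values of 1 member are not reported here singly. Motifs were chosen after the files were seen. Same-numbered arrays had correlations of -0.0245, 0.0165 and -0.0035 between their deviations from the group means. Alternatives were normexp with an offset of 50 (on median spot signals), quantile and median scaling, other filters and probe rules, an intensity trend, outliers kept, dim array columns masked, the authors' deposited values, subunits only, the omission of single arrays and a block for the replicate number.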

Additional observations from a re-analysis of the deposited data

How the results depend on the processing

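Under all 17 alternatives limma called 0 members, and the smallest adjusted p of a member was 0.102. The slide and scan block was not run, since each treatment lay on a slide of its own. The count of members with an unadjusted limma p under 0.05 was 8, against 21 with normexp, 5 with quantile normalization, 31 with a median shift and 16 with an intensity trend, where the share of all genes was 15.3%, against 17.2%, 14.3%, 19.8% and 15.9%. With the replicate block it was 7, the member median stayed at 0.084 and the count of all genes called was 0 in place of 7, but the numbers do not pair the animals. With 1 array left out, the calls over all genes were 0 to 6: 0 without phenolphthalein replicate 1, corn oil replicate 1 or corn oil replicate 3, and 1 without phenolphthalein replicate 2 or corn oil replicate 2. With all 6 arrays well above background, 10 genes were called.

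Quantile normalization moved the median log2 fold change to 0.015 for all members, 0.011 for complex I, -0.023 for complex III, 0.022 for complex IV and 0.030 for complex V. A median shift, under which the median of all genes was 0.089, gave 0.16 for all members, 0.14 for complex I, 0.21 for complex II, 0.11 for complex III, 0.19 for complex IV, 0.19 for complex V and 0.18 for assembly factors. The mean of a gene's probes gave 0.055 for complex IV and -0.0062 for the citric acid cycle list. With 1 array left out, medians ran from 0.066 to 0.096 for all members and from 0.069 to 0.17 for assembly factors, with 0.17 without phenolphthalein replicate 1.

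Single members changed sign, and the cause was not tested. They include members that were not near 0 in the main fit: Cox4i2 (0.23), Cox6a2 (0.18), Sdhd (0.13), Uqcrb (0.11) and Uqcrc1 (-0.097). With normexp the log2 fold change was 0.057 for Atp5if1, -0.037 for Cox5b, 0.10 for Cox6b2, 0.069 for Cox8a, 0.0038 for Ndufs3, -0.034 for Sdhaf1, -0.0045 for Sdhd, 0.0077 for Uqcr11, 0.039 for Uqcrc1 and -0.023 for Uqcrc2. With quantile normalization it was -0.033 for Atp5f1c, -0.065 for Cox5b, -0.0073 for Ndufv1, -0.015 for Sdhaf1, -0.058 for Sdhb, -0.0047 for Uqcrb, -0.010 for Uqcrc2 and -0.041 for Uqcrfs1. With a median shift it was 0.056 for Atp5f1d, 0.0056 for Atp5if1, 0.048 for Cox4i1, 0.041 for Cox6b2, 0.032 for Cox7a2l, 0.054 for Cox8a, 0.045 for Ndufaf7, 0.014 for Ndufs1, 0.052 for Ndufs3 and 0.033 for Uqcr11. With the mean of probes it was -0.086 for Cox4i2, -0.051 for Cox6a2, 0.073 for Ndufaf7, -0.038 for Ndufv1, -0.026 for Sdhaf1 and -0.025 for Sdhb. With 1 array left out, the range was -0.015 to 0.081 for Ndufv1, -0.075 to 0.028 for Ndufs3, -0.11 to 0.060 for Ndufaf7, -0.050 to 0.071 for Sdhaf1, -0.029 to 0.051 for Sdhb, -0.020 to 0.057 for Atp5f1c, -0.055 to 0.0076 for Atp5f1d, -0.065 to 0.015 for Cox4i1, -0.0078 to 0.082 for Cox5b, -0.079 to 0.0024 for Cox7a2l, -0.082 to 0.024 for Cox8a and -0.0087 to 0.061 for Uqcrfs1.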
